A study of Danio rerio with 20 samples.

Results

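The genes described here build and drive motile cilia: structural proteins of the axoneme, the factors that assemble its dynein motors in the cytoplasm, and foxj1b, a transcription factor of the motile cilia programme. They were chosen by name, with earlier results of these data known. A gene was a member when the reference gene table gave its probe a zebrafish symbol starting with cfap, dnaaf, dnah, dnai, dnal, drc, rsph or tekt, or one of ak8, catip, zmynd10, foxj1b, lrrc23, daw1 and spag6. A probe without a symbol was counted as a gene of its own, so some of these may be further probes of named genes. Of the 14663 genes counted in this way, 39 were members, each with 1 matched probe. The reference table holds 104 symbols that fit the rule, and no probe was matched to 65 of these. As 5509 of the 14694 probes matched no single symbol, some of the 65 may still have a probe on the array. None of the 39 has a dnah symbol, and the dynein heavy chains are not analysed here.

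A motile cilium beats because dynein arms on the outer doublet microtubules pull on the neighbouring doublet. The arms are preassembled in the cytoplasm by chaperone-like factors, many of them named DNAAF, and are then carried into the cilium. The nexin-dynein regulatory complex, the radial spokes and the central pair regulate the arms, and proteins on and inside the doublet wall dock and stabilise them. In zebrafish embryos, motile cilia are found in Kupffer's vesicle, the floor plate and spinal canal, the pronephric ducts, the otic vesicle and the olfactory placodes.

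Expression was measured in whole zebrafish embryos on 1-colour Agilent arrays, with 1 array for each RNA sample, 20 arrays in all. Embryos were exposed from 0.5 to 24 h after fertilisation to 10 µM cyclopamine, 10 µM SANT-2, 10 µM GANT-61 or, as the control, 0.1% ethanol. Each group had 5 independent replicates of 100 embryos, and no genotype or strain was given. The labels do not say in which vehicle the compounds were dissolved, so whether ethanol was their matched vehicle is not known. Cyclopamine, a plant steroidal alkaloid, and SANT-2, a synthetic small molecule, block Smoothened, the membrane protein that relays hedgehog signals, while GANT-61 acts further down the pathway, on the Gli transcription factors.

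The arrays lay on 4 slides that each held all 4 groups. Slide 2 was dimmer, with array 75th percentiles of 564.9 to 762.2, against 1125.2 to 2059.7 elsewhere, and 10038 to 12610 probes per array were well above background. Levels below are log2 signals relative to the 75th percentile of their own array, so that a negative level is a signal under that percentile, and levels of different genes cannot be set against each other. Testing needed a probe well above background on 4 or more arrays in any group of 5, which left 11435 genes, 7859 of them with a symbol. Of the 39 members, 35 were tested. The other 4 were too dim: rsph3 was well above background on 1 ethanol array alone, and cfap96, cfap206 and dnai2a on no array. A gene is called below when limma's adjusted p was under 0.05. Precision is limited by how many arrays there are.

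In cyclopamine embryos, drc3, spag6, daw1, cfap52 and dnaaf6 were lower than in ethanol embryos, by 1.44-fold to 1.74-fold. They serve the nexin-dynein link, the central pair, dynein assembly and delivery, and the doublet wall. These are 5 of the 35 members tested (14.3%), where 0.84% of all genes tested were called lower, and 0 members were called higher, as were 0.035% of all genes. An unadjusted p under 0.05 was reached by 19 members, against 5.36% of all genes. Estimates were below 0 for 31 of the 35 members, against 43.0% of all genes, and the median log2 change was -0.45 over the members and 0.03 over all genes tested. For 13 members all 5 cyclopamine arrays lay below all 5 ethanol arrays, which was so for 1.4% of all genes. Because earlier results of these data were known when the members were chosen, these shares are a description only. In these whole-embryo samples, fewer ciliated cells and less RNA per ciliated cell cannot be told apart.

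The replicate numbers were taken as pairing cyclopamine and ethanol arrays, from correlations between same-numbered arrays. All 5 pairs also shared a slide, so number and slide cannot be fully told apart, and the block by number is no separate support. With slide as a block 14 members were called lower, where 1.69% of all genes were. With replicate number as a block 14 were called lower too, where 1.85% of all genes were. Within single slides the members' median was -0.48, -0.34, -0.53 and -0.34 on slides 1 to 4, and 21 members were lower on all 4 slides, as were 11.2% of all genes. Without the arrays of slide 1, 0 members were called, and without those of slide 3, 2 were. Calls over all genes were 30 and 54 in those fits, against 100 with all slides, and the members' median was -0.42 and -0.41. Under the planned normexp background correction 0 members were called and the median turned to 0.68, with a background estimate on cyclopamine arrays 1 and 3 and ethanol array 1 far from that of the other arrays. With the background taken from negative control spots, 1 member was called, or 3 with a robust estimate, and the medians were -0.58 and -0.22. Over all genes, 35 and 63 were called in these fits, and 10 under the planned correction, against 100 in the main fit. The medians of all genes were -0.17 and 0.09, and 0.56 under the planned correction. In the first of the control-spot fits, the background SD was 1294 on ethanol array 4.

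**Figure D1:**
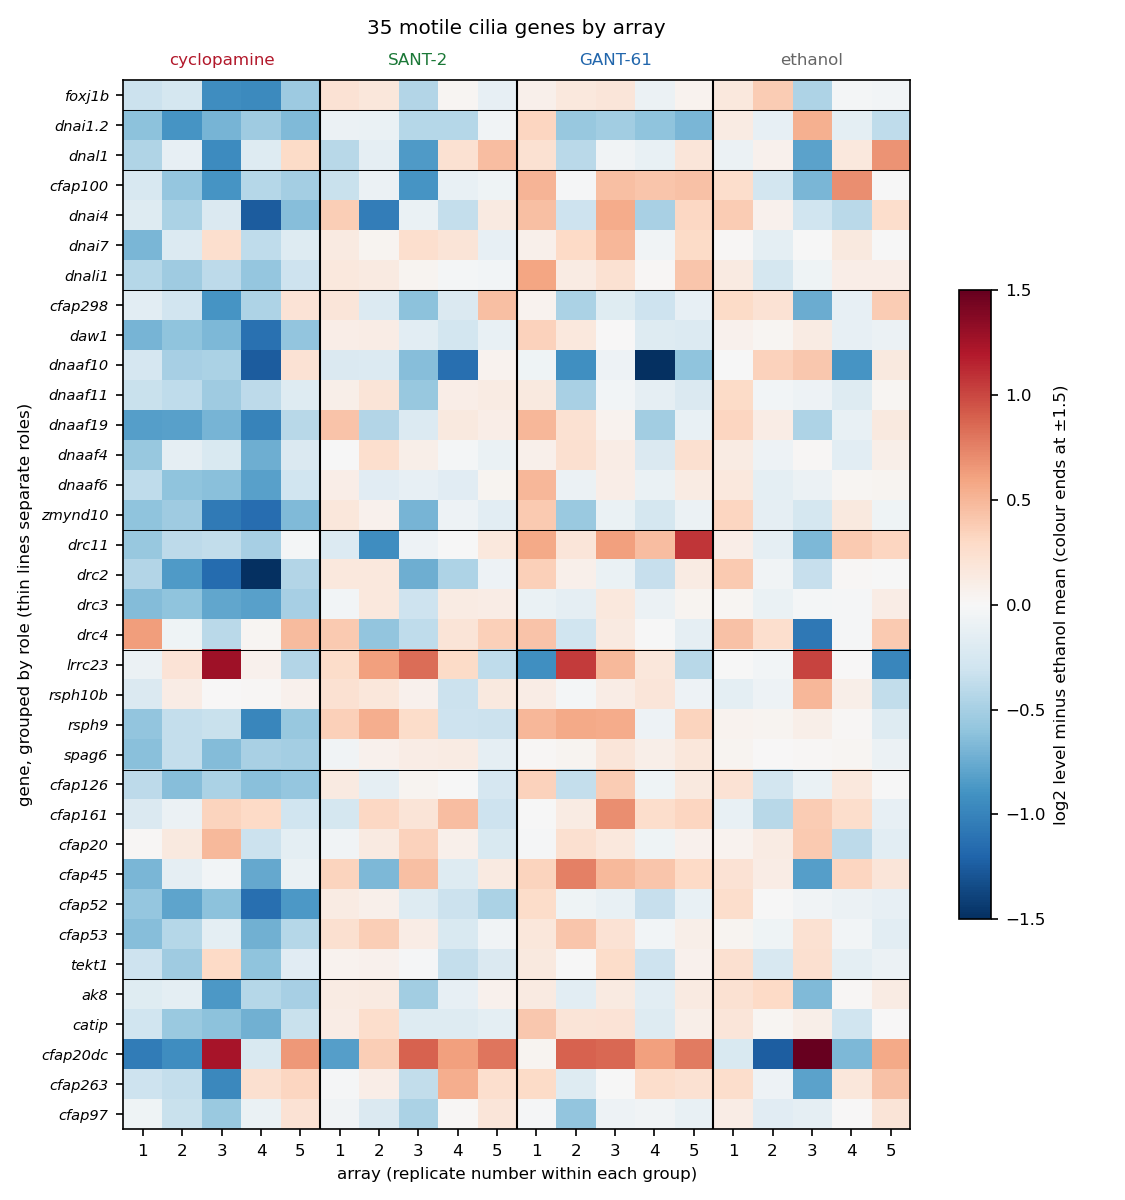
Heat map of the 35 tested genes (rows, grouped by role) on the 20 arrays (columns, by group and replicate number). Colour is the log2 level minus the mean of the 5 ethanol arrays. The cyclopamine columns are mostly blue, that is lower, while the rows of cfap20, drc4, lrrc23 and rsph10b have 2 of 5 cyclopamine arrays below the ethanol mean.

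**Figure D2:**
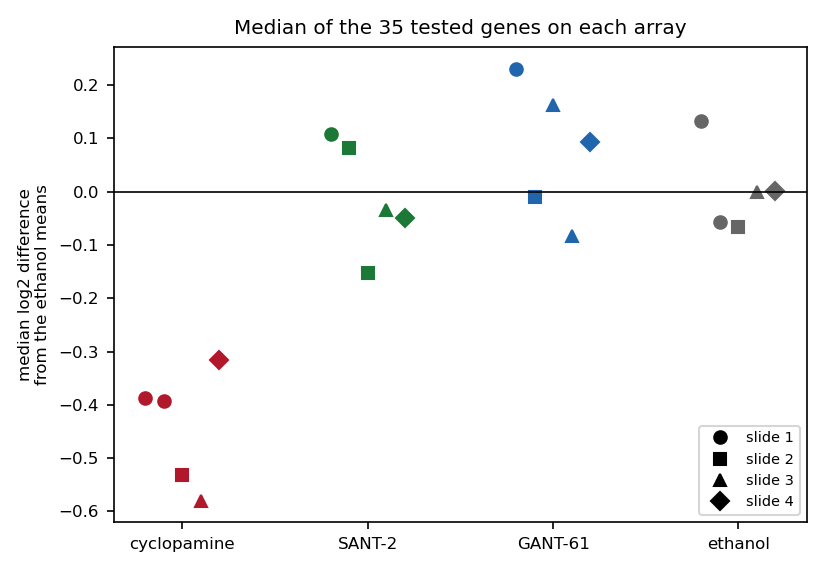
Median over the 35 tested genes of the log2 difference from the ethanol means, 1 point per array, with the slide as the symbol. The cyclopamine arrays lie between -0.58 and -0.32, below every array of the other groups.

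By array, the median of the 35 members relative to the ethanol means was -0.58 to -0.32 on the cyclopamine arrays. It was -0.15 to 0.11 on the SANT-2 arrays, -0.08 to 0.23 on the GANT-61 arrays and -0.07 to 0.13 on the ethanol arrays. The cyclopamine arrays thus did not overlap any other group in this median.

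Foxj1b is one of 2 zebrafish foxj1 genes and the only transcription factor among the members. Its log2 levels were -2.98, -2.92, -3.59, -3.61 and -3.21 on the cyclopamine arrays, -2.44, -2.49, -3.10, -2.63 and -2.79 on the SANT-2 arrays, -2.58, -2.51, -2.47, -2.74 and -2.61 on the GANT-61 arrays and -2.497, -2.28, -3.12, -2.69 and -2.71 on the ethanol arrays. Cyclopamine arrays 3 and 4 were the lowest, and the group overlapped the ethanol group at ethanol array 3. The change against ethanol was -0.60 ± 0.17 (log2, SE), adjusted p = 0.153, which was not called, and the adjusted p was 0.021 with slide and 0.0123 with replicate number as a block. Against GANT-61 foxj1b was called lower, with a change of -0.68 ± 0.17 (log2, SE), adjusted p = 0.0453, and there the groups did not overlap, but the call was lost in 8 of the 10 fits that left out 1 replicate. Ordered by mean level, GANT-61 (-2.58 ± 0.11), ethanol (-2.66 ± 0.31) and SANT-2 (-2.69 ± 0.27) lay within their spread of each other, and cyclopamine (-3.26 ± 0.33) was last (mean ± SD, n = 5 each).

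Of the 8 dynein assembly genes tested, 2 were called lower in cyclopamine than in ethanol embryos, where 0.84% of all genes were. The changes of all 8 lay between -0.80 and -0.32 with a median of -0.50. Daw1 encodes a WD-repeat protein needed for delivering outer arm dynein into cilia. Log2 levels of daw1 were -1.69, -1.60, -1.67, -2.11 and -1.59 on the cyclopamine arrays, -0.89, -0.88, -1.14, -1.27 and -1.10 on the SANT-2 arrays, -0.64, -0.84, -0.98, -1.19 and -1.19 on the GANT-61 arrays and -0.93, -0.96, -0.87, -1.12 and -1.08 on the ethanol arrays. All 5 cyclopamine arrays lay below the 15 others, and cyclopamine array 4 was the lowest. The change against ethanol was -0.74 ± 0.13 (log2, SE), adjusted p = 0.00373, a 1.67-fold lower level, and it stayed called with each replicate left out. Dnaaf6, also known as Pih1d3, is a co-chaperone of dynein assembly. The dnaaf6 log2 levels were -2.11, -2.33, -2.36, -2.54 and -2.02 on the cyclopamine arrays, -1.62, -1.89, -1.85, -1.89 and -1.68 on the SANT-2 arrays, -1.22, -1.82, -1.63, -1.83 and -1.60 on the GANT-61 arrays and -1.56, -1.87, -1.81, -1.70 and -1.68 on the ethanol arrays. The cyclopamine arrays again lay below all others. Its change was -0.55 ± 0.13 (log2, SE), adjusted p = 0.0452, close to the threshold, and the call was lost in 9 of the 10 fits that left out 1 replicate.

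The other 6 assembly genes were not called without a block. Zmynd10, a zinc-finger cofactor of dynein assembly, read -4.40, -4.32, -4.86, -4.94 and -4.46 on the cyclopamine arrays, against -3.47, -3.92, -4.06, -3.65 and -3.86 on the ethanol arrays. The groups did not overlap, the change was -0.80 ± 0.19 (log2, SE), adjusted p = 0.0516, and 4 of the 5 cyclopamine arrays were well above background. With a block its adjusted p was 0.00454 with slide and 0.00748 with replicate number as a block. Dnaaf19, formerly ccdc103, read -4.83, -4.82, -4.70, -5.01 and -4.43 on the cyclopamine arrays, against -3.68, -3.90, -4.46, -4.12 and -3.86 on the ethanol arrays. The groups overlapped at ethanol array 3, the change was -0.75 ± 0.20 (log2, SE), adjusted p = 0.0998, and the adjusted p was 0.0254 with slide and 0.0312 with replicate number as a block. The changes were -0.37 for dnaaf4, -0.37 for dnaaf11, -0.45 for dnaaf10 and -0.32 for cfap298, and none of these was called with or without a block.

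**Figure D3:**
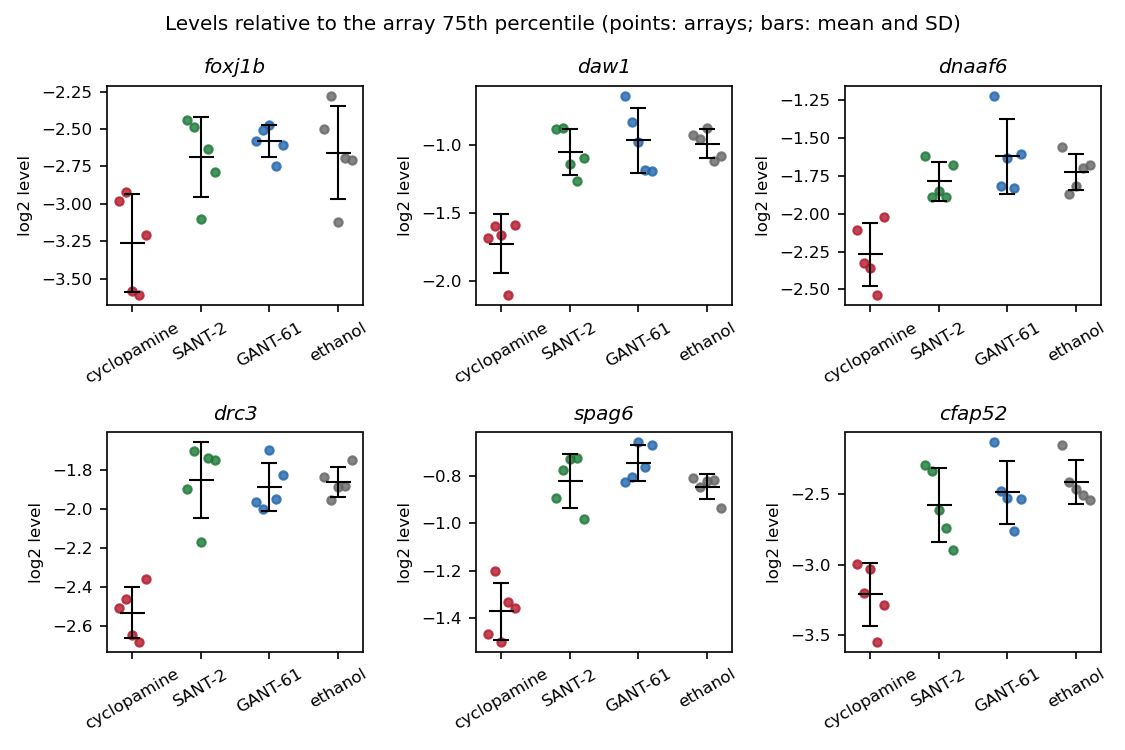
Log2 level relative to the array 75th percentile (vertical axes, each gene on its own scale) of foxj1b and the 5 genes called between cyclopamine and ethanol. Points are arrays and bars are mean and SD of 5 arrays. In the 5 called genes every cyclopamine point lies below every ethanol point.

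Among the dynein arm genes 0 of 2 outer arm and 0 of 4 inner arm members were called against ethanol, where 0.84% of all genes were called lower. Their median changes were -0.48 and -0.49, near that of the assembly genes, so these counts do not set the arm genes apart. Dnali1 encodes an inner arm light chain. In log2 units dnali1 read -2.23, -2.33, -2.19, -2.38 and -2.11 on the cyclopamine arrays, -1.65, -1.67, -1.76, -1.83 and -1.84 on the SANT-2 arrays, -1.20, -1.68, -1.58, -1.78 and -1.38 on the GANT-61 arrays and -1.67, -2.06, -1.87, -1.70 and -1.70 on the ethanol arrays. Cyclopamine lay below all other arrays. Its change against ethanol was -0.45 ± 0.11 (log2, SE), adjusted p = 0.0832, and the adjusted p was 0.0317 with slide and 0.0172 with replicate number as a block. Dnai1.2, an outer arm intermediate chain gene, was dim, with 3 cyclopamine, 4 SANT-2, 5 GANT-61 and 5 ethanol arrays well above background. Its probe gave log2 levels of -5.42, -5.69, -5.498, -5.34 and -5.46 on the cyclopamine arrays, -4.90, -4.91, -5.24, -5.23 and -4.86 on the SANT-2 arrays, -4.48, -5.37, -5.33, -5.41 and -5.49 on the GANT-61 arrays and -4.69, -4.93, -4.28, -4.95 and -5.19 on the ethanol arrays. The cyclopamine and ethanol arrays did not overlap, but GANT-61 overlapped both. The change under cyclopamine was -0.68 ± 0.18 (log2, SE), adjusted p = 0.121, and a block did not bring it under the threshold (0.0618 with slide and 0.0539 with replicate number as a block). Cfap100, an inner arm regulator, had an estimate of -0.53, dnai4 of -0.55, dnai7 of -0.24 and dnal1 of -0.28, and none of these was called with or without a block.

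The nexin-dynein regulatory complex links neighbouring doublets. Drc3 had the smallest p of all members against ethanol. The levels of drc3, in log2, were -2.51, -2.46, -2.65, -2.68 and -2.36 on the cyclopamine arrays, -1.90, -1.70, -2.17, -1.74 and -1.75 on the SANT-2 arrays, -1.97, -1.998, -1.70, -1.95 and -1.83 on the GANT-61 arrays and -1.83, -1.96, -1.89, -1.88 and -1.75 on the ethanol arrays. Every cyclopamine array lay below the 15 others. Its change was -0.67 ± 0.11 (log2, SE), adjusted p = 0.00138, a 1.59-fold lower level, and it stayed called with each replicate left out. Drc2, a core subunit of the complex, had the lowest estimate of all members. It read -3.77, -4.18, -4.49, -4.83 and -3.77 on the cyclopamine arrays, against -2.94, -3.39, -3.68, -3.32 and -3.34 on the ethanol arrays. Those groups did not overlap, yet the cyclopamine arrays spread over more than 1 log2 unit, and the change was -0.87 ± 0.22 (log2, SE), adjusted p = 0.0766. With a block the adjusted p was 0.00872 with slide and 0.00102 with replicate number as a block. Drc11 had an estimate of -0.37 and drc4 of 0.13, and neither was called.

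Spag6 encodes a central pair protein. Log2 levels of spag6 were -1.47, -1.20, -1.498, -1.33 and -1.36 on the cyclopamine arrays, -0.90, -0.78, -0.73, -0.72 and -0.98 on the SANT-2 arrays, -0.82, -0.80, -0.66, -0.76 and -0.67 on the GANT-61 arrays and -0.81, -0.85, -0.82, -0.82 and -0.94 on the ethanol arrays. These groups were tight, and every cyclopamine array lay below the 15 others. The change against ethanol was -0.53 ± 0.09 (log2, SE), adjusted p = 0.00212, a 1.44-fold lower level, which stayed called with each replicate left out. Rsph9, a radial spoke head gene, read -4.67, -4.44, -4.42, -5.07 and -4.66 on the cyclopamine arrays, against -4.03, -4.04, -3.998, -4.06 and -4.27 on the ethanol arrays. No arrays of these groups overlapped, with a change of -0.57 ± 0.18 (log2, SE), adjusted p = 0.275 and an adjusted p of 0.0285 with slide and 0.0156 with replicate number as a block. Rsph10b and lrrc23, both of the radial spoke, had estimates of -0.01 with a 95% interval of -0.30 to 0.29 and 0.20 with -0.61 to 1.02.

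On the doublet wall, 1 of 7 tested members was called lower against ethanol, where 0.84% of all genes were. Cfap52 is a protein inside the doublet. Cfap52 had log2 levels of -2.99, -3.20, -3.03, -3.55 and -3.28 on the cyclopamine arrays, -2.29, -2.33, -2.61, -2.74 and -2.90 on the SANT-2 arrays, -2.14, -2.48, -2.53, -2.76 and -2.53 on the GANT-61 arrays and -2.15, -2.42, -2.46, -2.51 and -2.54 on the ethanol arrays. Again the cyclopamine arrays lay below all others. The change was -0.80 ± 0.14 (log2, SE), adjusted p = 0.0053, a 1.74-fold lower level, and it stayed called with each replicate left out. Cfap53, a protein inside the doublet that is needed for left-right patterning, read -2.51, -2.30, -2.01, -2.58 and -2.30 on the cyclopamine arrays, against -1.83, -1.93, -1.64, -1.91 and -2.02 on the ethanol arrays. Cyclopamine array 3 overlapped the ethanol group, the change was -0.47 ± 0.13 (log2, SE), adjusted p = 0.142, and the adjusted p was 0.00679 with slide and 0.0183 with replicate number as a block. Cfap126 read -3.65, -3.90, -3.74, -3.89 and -3.85 on the cyclopamine arrays, against -3.04, -3.54, -3.36, -3.11 and -3.27 on the ethanol arrays. Its groups did not overlap, its change was -0.54 ± 0.14 (log2, SE), adjusted p = 0.0884, and its adjusted p was 0.0395 with slide and 0.00794 with replicate number as a block. Cfap45 had an estimate of -0.35 and tekt1, a tektin of the doublet, one of -0.27. For cfap20 the estimate was 0.04 (95% interval -0.30 to 0.37) and for cfap161 0.01 (-0.40 to 0.41).

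Of the 5 remaining members none was called without a block. Catip, a ciliogenesis gene, read -2.09, -2.34, -2.40, -2.51 and -2.12 on the cyclopamine arrays, against -1.60, -1.76, -1.70, -2.08 and -1.78 on the ethanol arrays. The arrays did not overlap, the change was -0.51 ± 0.13 (log2, SE), adjusted p = 0.106, and the adjusted p was 0.0142 with slide and 0.00457 with replicate number as a block. Estimates were -0.42 for ak8, an adenylate kinase, -0.21 for cfap263, -0.17 for cfap97 and -0.06 for cfap20dc, the last with a 95% interval of -1.10 to 0.97.

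**Figure D4:**
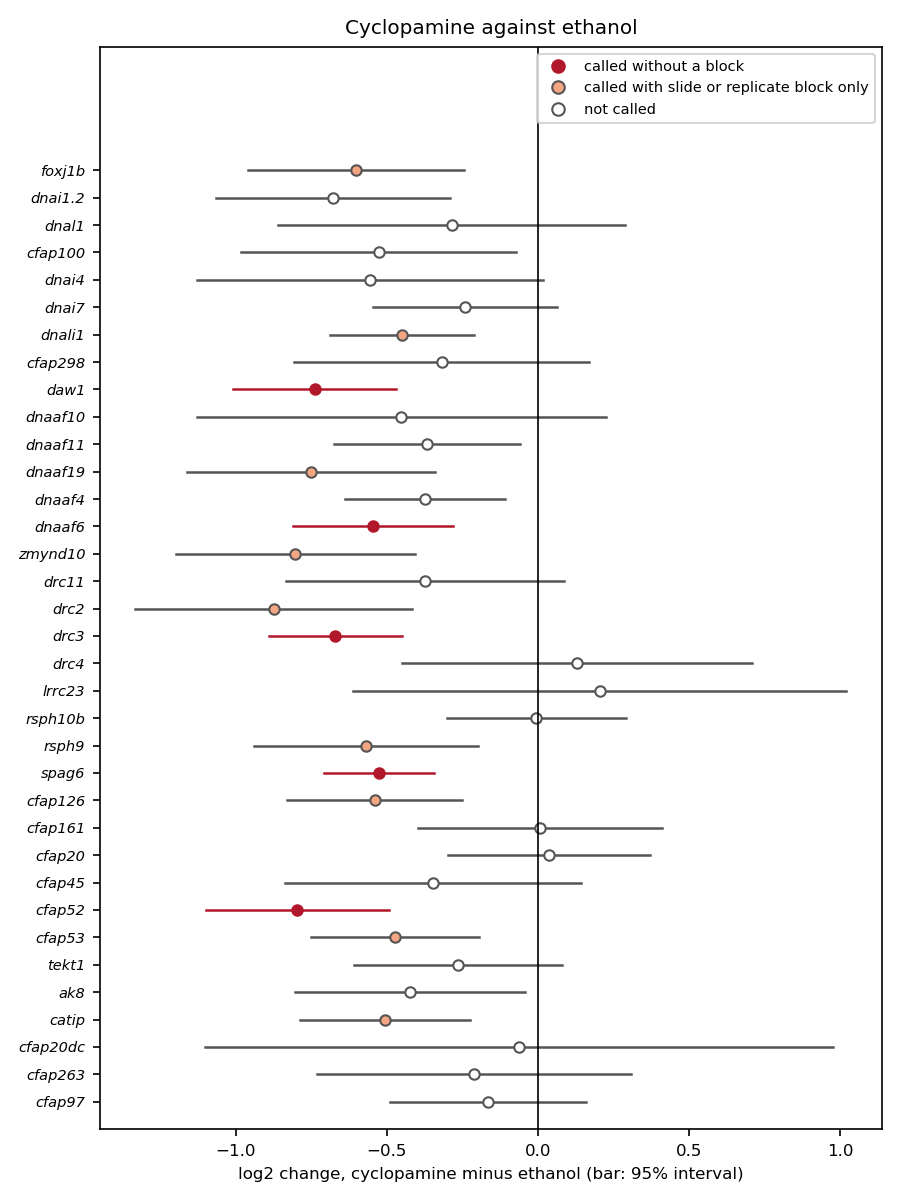
Log2 change, cyclopamine minus ethanol, of the 35 tested genes in order of role, with 95% intervals from limma. Filled red points mark the 5 genes called without a block, pale points those called only with slide or replicate number as a block.

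Under SANT-2 no motile cilia gene was called against ethanol, in a comparison in which 0.0% of all genes were called in either direction. By limma 0 members had an unadjusted p under 0.05, against 1.12% of all genes, and with either block 0.0% of genes were called, members included. The median log2 change was -0.03 over the members and 0.04 over all genes, with 20 of 35 estimates below 0 against 40.0% of all genes. The smallest unadjusted p were those of cfap100, dnaaf10, dnai1.2, cfap52 and drc11, whose changes lay between -0.43 and -0.16. For the genes called under cyclopamine, the 95% intervals of the SANT-2 change were -0.21 to 0.23 for drc3, -0.16 to 0.21 for spag6, -0.33 to 0.21 for daw1, -0.46 to 0.14 for cfap52 and -0.33 to 0.20 for dnaaf6.

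GANT-61 likewise brought 0 members past the threshold against ethanol, where 0.00875% of all genes were called lower and 0.149% higher, and neither block added one. Of all genes, 0.184% were called lower and 1.53% higher with slide as a block, and 0.236% and 0.971% with replicate number. The median was 0.08 over the members and 0.05 over all genes, and 26 of 35 estimates were above 0 against 60.1% of all genes. An unadjusted p under 0.05 was reached by 4 members, where 6.29% of all genes reached it. These were drc11 (0.58 ± 0.22 (log2, SE), adjusted p = 0.664), dnali1 (0.28 ± 0.11 (log2, SE), adjusted p = 0.761), rsph9 (0.37 ± 0.18 (log2, SE), adjusted p = 0.794) and dnai1.2 (-0.41 ± 0.18 (log2, SE), adjusted p = 0.779). Dnaaf10 came next, with -0.65 ± 0.32 (log2, SE), adjusted p = 0.795. It read -2.13, -2.98, -2.14, -3.64 and -2.66 on the GANT-61 arrays, against -2.07, -1.72, -1.65, -2.95 and -1.92 on the ethanol arrays, and the groups overlapped.

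**Figure D5:**
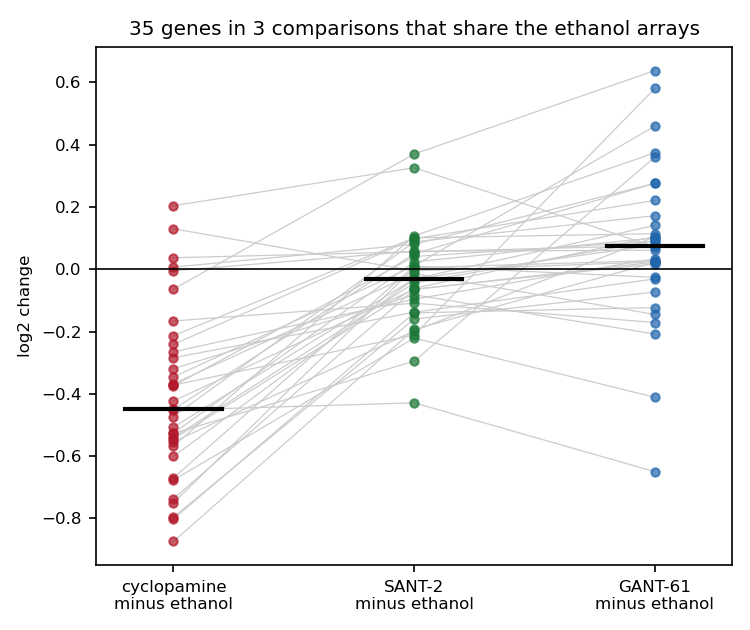
Log2 change of the 35 tested genes under each compound against ethanol, with grey lines joining a gene and black bars at the median. The medians are -0.45 under cyclopamine, -0.03 under SANT-2 and 0.08 under GANT-61, and the 3 comparisons share the same ethanol arrays.

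The compounds were then compared with each other at the same dose and time. Against SANT-2 arrays, 5 members were called lower in cyclopamine embryos and 0 higher, where 0.735% of all genes were called lower and 0.0175% higher. They were drc3 (-0.68 ± 0.11 (log2, SE), adjusted p = 0.00123), spag6 (-0.55 ± 0.09 (log2, SE), adjusted p = 0.00151), daw1 (-0.67 ± 0.13 (log2, SE), adjusted p = 0.00969), cfap52 (-0.64 ± 0.14 (log2, SE), adjusted p = 0.0443) and dnali1 (-0.500 ± 0.11 (log2, SE), adjusted p = 0.0451). In the 10 fits that left out 1 replicate, the call of dnali1 was lost in 10 and that of cfap52 in 7, while the others stayed. The median was -0.36 over the members and -0.02 over all genes, 34 of 35 estimates were below 0 against 56.0% of all genes, and 11 members did not overlap against 1.11%. Replicate numbers were taken as pairing these arrays too, and 4 of 5 pairs shared a slide. The pair on different slides had the lowest correlation, 0.26. With slide as a block 13 members were called and with replicate number 15, where 1.37% and 1.67% of all genes were called lower. The count was 0 without slide 1 or slide 3, 2 without slide 4, 3 without slide 2, and 3 without cyclopamine replicate 2, 4 or 5 or SANT-2 replicate 1, 2 or 3. It was also 0 when the 2 groups were fitted alone. Over all genes, where 86 were called with all slides, 30, 83, 45 and 51 were called without slides 1 to 4 and 35 with the 2 groups alone. The members' median in these fits lay between -0.43 and -0.33. Leaving out 1 of the replicates named above gave 69 to 78 calls over all genes.

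Between cyclopamine and GANT-61, 15 members were called lower and 0 higher, where 1.61% of all genes were called lower and 0.219% higher. The median was -0.63 over the members and -0.04 over all genes, and 15 members did not overlap, against 2.18% of all genes. Spag6 (-0.63 ± 0.09 (log2, SE), adjusted p = 0.000239), dnali1 (-0.73 ± 0.11 (log2, SE), adjusted p = 0.000949), drc3 (-0.64 ± 0.11 (log2, SE), adjusted p = 0.00133), daw1 (-0.76 ± 0.13 (log2, SE), adjusted p = 0.00194) and rsph9 (-0.94 ± 0.18 (log2, SE), adjusted p = 0.00479) had the smallest p. Next were dnaaf6 (-0.65), cfap52 (-0.72), cfap53 (-0.65), catip (-0.65) and cfap126 (-0.63). The remaining calls were drc11 (-0.95), drc2 (-0.90), cfap100 (-0.89), foxj1b (-0.68) and dnaaf19 (-0.78), all as log2 changes. In 10 fits that left out 1 replicate, cfap100, dnaaf19 and foxj1b each lost the call in 8. Drc2 lost it in 7, drc11 in 6 and cfap126 in 4, and the other calls stayed. With slide or with replicate number as a block 18 members were called lower, as were 3.59% and 3.78% of all genes. The count was 1 without slide 1, 4 without slide 3 and 6 without slide 4, and 9 without cyclopamine replicate 4, GANT-61 replicate 1 or GANT-61 replicate 3. Calls over all genes were 52, 78 and 117 without slides 1, 3 and 4, against 209 with all slides, and the members' median was -0.58, -0.56 and -0.61. Without the replicates named above, 159, 162 and 146 of all genes were called, in that order.

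Between SANT-2 and GANT-61, 0 members were called by limma without a block, where 0.236% of all genes were called lower and 0.0262% higher, and 2 members had an unadjusted p under 0.05, as had 3.74% of all genes. The median was -0.09 over the members and -0.01 over all genes. Drc11 read -1.20, -1.92, -1.07, -1.003 and -0.84 on the SANT-2 arrays, against -0.43, -0.82, -0.38, -0.53 and 0.08 on the GANT-61 arrays, and these did not overlap, as was so for 0.822% of all genes. Its change was -0.79 ± 0.22 (log2, SE), adjusted p = 0.301, and the adjusted p was 0.0447 with slide and 0.035 with replicate number as a block, so that it was the 1 member called with either block, where 0.726% and 0.673% of all genes were called lower. Cfap100, which also did not overlap, had a change of -0.66 ± 0.22 (log2, SE), adjusted p = 0.572.

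Other cilia genes were listed by function. A further list for the motile axoneme had 21 tested genes, among them tuba8l2, tubb4b, ruvbl1 and ruvbl2. Of these 21, 2 were called lower under cyclopamine against ethanol and 0 higher, where 0.84% and 0.035% of all genes were. The median was -0.15, the changes ran from -0.62 to 0.64, and 15 estimates were below 0, against 43.0% of all genes. Armc3 changed by -0.62 ± 0.10 (log2, SE), adjusted p = 0.00254, and nme5, a radial spoke gene, by -0.61 ± 0.14 (log2, SE), adjusted p = 0.0452. With slide as a block 5 of the 21 were called lower and with replicate number 6, where 1.69% and 1.85% of all genes were, among them odad3, a dynein docking gene (-0.48). Under SANT-2 and GANT-61 0 of the 21 were called. The 6 tested cilia regulators had 0 calls under any compound against ethanol. Of all genes, 0.0% were called under SANT-2, and 0.00875% lower and 0.149% higher under GANT-61. At these shares and those under cyclopamine, counts of 0 in lists of this size do not set the genes apart. Under cyclopamine foxj1a, the other zebrafish foxj1 gene, had -0.58 ± 0.20 (log2, SE), adjusted p = 0.441, foxn4 0.48, noto -0.31, rfx4 0.15, rfx2 -0.08 and e2f4 -0.05. Foxj1a was called lower in cyclopamine than in GANT-61 embryos (-0.92 ± 0.20 (log2, SE), adjusted p = 0.018).

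Genes that all cilia share had 0 calls under cyclopamine against ethanol, in a comparison in which 0.84% of all genes were called lower and 0.035% higher, so that counts of 0 in lists of this size do not set them apart. Intraflagellar transport, which builds all cilia, had 0 of 19 tested genes called and a median of -0.09. Of these 19 estimates 13 were below 0, against 43.0% of all genes. The BBSome and transition zone had 0 of 11 called and a median of -0.01, with 6 of the 11 estimates below 0. Of the left-right and flow genes 0 of 5 were called and the median was 0.11. Their changes ran from -0.54, that of lft2, to 0.56, and 2 of the 5 estimates were below 0.

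Markers of ciliated tissues were set beside these values. Of 10 floor plate and ventral midline markers, 9 estimates were below 0 under cyclopamine, against 43.0% of all genes. Foxa was the 1 called lower (-1.504 ± 0.17 (log2, SE), adjusted p = 3.9e-05), where 0.84% of all genes were. With either block 3 were called lower, where 1.69% of all genes were with slide and 1.85% with replicate number. Their summed linear level, relative to the array 75th percentile, was 6.35 to 9.33 on the cyclopamine arrays, 8.28 to 11.98 on the SANT-2 arrays, 9.48 to 12.6 on the GANT-61 arrays and 9.55 to 11.2 on the ethanol arrays. The cyclopamine and ethanol arrays did not overlap in that sum, and its part in the changes of the cilia genes was not tested. For the pronephros 0 of 12 markers were called, with sums of 6.54 to 12.8 on the cyclopamine arrays and 6.99 to 13.3 on the ethanol arrays. The otic vesicle had 0 of 10 called, with sums of 13.7 to 14.8 on the cyclopamine arrays and 13.2 to 15.2 on the ethanol arrays. Neither the 3 olfactory placode markers nor the 6 markers of cerebrospinal fluid-contacting neurons had a call without a block. As 0.84% of all genes were called lower and 0.035% higher, counts of 0 in lists this short do not set these tissues apart. Of 8 markers of other embryo tissues, 1 was called, the muscle regulator myod1 (-0.80 ± 0.15 (log2, SE), adjusted p = 0.00603).

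The members also tended weakly to vary together among arrays of one group. After the group and slide means were removed, the median correlation over the 595 pairs of members was 0.20, against 0.01 over pairs of all genes, across the 20 arrays. The quartiles were -0.08 and 0.41 for the members and -0.24 and 0.27 for all genes, so the ranges overlapped widely. These points share the labelled RNA of each array, and the value is a description. Zmynd10, daw1 and cfap52 had the highest median correlation with the other members, at 0.38, 0.38 and 0.37, and cfap20 (-0.03), lrrc23 (-0.03) and cfap45 (-0.03) the lowest.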

How the data were processed

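The deposited scanner files give each spot's processed intensity. Per their headers, Agilent Feature Extraction 10.1.1.1 made it; array 75th percentiles differ, so it was not scaled between arrays. Per the labels' protocols, RNA was extracted with Trizol and labelled with Cy3. The authors deposited a second table of normalized log2 values, which correlated with the log2 intensities at 0.9975 to 0.9999 per array. Its column medians were 7.20 to 7.22, its normalization is not given in the sources used here, and it served as an alternative.

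Intensities were taken to log2, spots flagged as outliers were left out, and each array's 75th percentile of non-control spots was subtracted. Spots of a probe were averaged and the brightest of a gene's probes was kept. Probes were named through the reference table (assembly GRCz12tu, names only): 9185 of 14694 matched 1 symbol. Flags marking spots as well above background, deposited with the intensities, set the filter.

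One limma model (version 3.58.1, R 4.3.3) gave each of the 4 groups of 5 arrays its mean. The p-values are two-sided and were adjusted by the Benjamini-Hochberg method over 11435 genes within each of the 6 comparisons. Deviations from group means, correlated between arrays of the same number, were at lowest 0.46 between cyclopamine and ethanol. The lowest was 0.26 between cyclopamine and SANT-2, 0.21 between cyclopamine and GANT-61, and 0.14 between SANT-2 and GANT-61. The numbers were taken as pairing there, by these correlations alone. SANT-2 had a lowest value of -0.008 with ethanol, and GANT-61 one of -0.045, and these were not taken as paired. Same-numbered arrays shared a slide in 3 to 5 of 5 pairs, so number and slide overlap. In each comparison but that of cyclopamine with ethanol, the lowest value came from a pair on different slides. Over the 6 comparisons, same-numbered pairs correlated at 0.462 to 0.823 on a shared slide and at -0.045 to 0.256 on different slides. High correlation thus went with the shared slide, and the numbers were not shown to pair arrays apart from it.

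The members and gene lists were chosen with earlier results of these data known. Genes chosen for closer description were those called in any comparison, the 12 with the smallest p under a block, the 5 with the smallest p per compound, and foxj1b, 17 in all. For some of them array levels are given only for the groups compared, and for cfap100 no full series is given. Alternatives covered background correction, scaling, filters, blocks and left-out arrays. Normexp used the median spot signals in place of the planned mean signals. In simulated data for cyclopamine against ethanol, the fit recovered 24% of changes of 0.5 log2 units, about the members' median size, and made 14 false calls. The simulated noise was independent between arrays, whereas real arrays on a shared slide correlated. These values may therefore not hold for the real data.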

Additional observations from a re-analysis of the deposited data

Results flagged for a closer look

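In groups of 5 arrays, 4 single levels lay further from the rest than Dixon's 95% limit of 0.71 allows, out of 72 groups examined. Chance alone gives about 1 in 20. Cfap100 read -3.20 on GANT-61 array 2, while the other GANT-61 arrays read -2.78 to -2.69. Daw1 read -2.11 on cyclopamine array 4, against -1.69 to -1.59 on the other cyclopamine arrays. Dnai1.2 read -4.48 on GANT-61 array 1, against -5.49 to -5.33 on the others of its group. Rsph9 read -4.27 on ethanol array 5, against -4.06 to -4.00 on the others. No explanation of these was tested.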

How the results depend on the processing

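All counts are of members called and all changes are log2. The planned normexp correction with default estimates turned the cyclopamine changes positive and left 0 members called in each comparison. Over all genes, 10, 10 and 15 were called for cyclopamine against ethanol, SANT-2 and GANT-61, against 100, 86 and 209 in the main fit. The members' medians were 0.68 against ethanol, 0.77 against SANT-2 and 0.65 against GANT-61, while the median of all genes moved to 0.56, 0.54 and 0.54. Its background SD was 8905 on cyclopamine array 1 and 13310 on cyclopamine array 3, against 48.2 on ethanol array 1, whose background mean was -77.09, and at most 3.73 on the others, and the 5th percentile of corrected signal there was 5939 and 5238, against 64.8 to 177.3. The reversed log2 changes were, for cyclopamine minus ethanol catip 0.43, cfap126 0.88, cfap52 0.42, cfap53 0.45, dnaaf6 0.37, dnali1 0.39, drc2 0.74, drc3 0.26, foxj1b 0.54, rsph9 1.01 and spag6 0.061. The reversed log2 changes were, for cyclopamine minus SANT-2 catip 0.43, cfap126 0.89, cfap52 0.51, cfap53 0.36, dnaaf6 0.41, dnali1 0.34, drc2 0.77, drc3 0.20, rsph9 0.90 and spag6 0.044. The reversed log2 changes were, for cyclopamine minus GANT-61 catip 0.32, cfap100 0.47, cfap126 0.78, cfap52 0.45, cfap53 0.28, dnaaf19 0.89, dnaaf6 0.30, dnali1 0.15, drc2 0.71, drc3 0.20, foxj1b 0.46 and rsph9 0.79. Dnai1.2 turned to 0.003 for SANT-2 minus ethanol. These estimates were looked at because the results had turned, so both of the following were chosen after seeing the data; a further version, with RMA estimates, could not be run. With the background from the 77 negative control spots, counts were 1, 0 and 2 for cyclopamine against ethanol, SANT-2 and GANT-61, and medians -0.58, -0.24 and -0.39. Calls over all genes were 35, 29 and 44 in that fit. The SD was 1294 on ethanol array 4 there, against at most 10.0 on the others, and the medians for SANT-2 and GANT-61 minus ethanol were -0.28 and -0.24, where foxj1b (-0.24) and rsph9 (-0.19) reversed for GANT-61. The median of all genes moved there to -0.17, -0.14 and -0.14 for cyclopamine, SANT-2 and GANT-61 minus ethanol. A robust estimate from the same spots, added after that, gave SDs of 2.88 to 7.32, counts of 3, 3 and 7 and medians of -0.22, -0.24 and -0.39. Calls over all genes were then 63, 56 and 110, and the medians of all genes 0.09, -0.02 and -0.03. There dnai1.2 reversed to 0.084 for GANT-61 and 0.13 for SANT-2, and foxj1b to 0.02 for SANT-2, each minus ethanol.

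For cyclopamine minus ethanol (5 called), the count was 15 with array weights, 14 with either block, 3 with the compared groups alone, 0 without slide 1 and 2 without slide 3. Over all genes, 53 were called with the compared groups alone, against 100. For cyclopamine minus SANT-2 (5), the count of members was 3 with quantile scaling, median scaling, the authors' table, no filter, a trended robust spread or without slide 2. Calls over all genes were 76 to 83 in those fits, against 86. The members called were 13 with slide and 15 with replicate number as a block, 0 with the compared groups alone, without slide 1 or without slide 3, and 2 without slide 4. For cyclopamine minus GANT-61 (15), the count of members was 7 with median scaling or the compared groups alone, and 1, 4 and 6 without slides 1, 3 and 4. Over all genes, 170 were called with median scaling and 119 with the compared groups alone, against 209. GANT-61 minus ethanol had 2 members called with array weights, and SANT-2 minus GANT-61 had 1 with array weights or either block. In the latter comparison, array weights gave 56 calls over all genes, against 30. Leaving out 1 replicate gave 4 to 7, 3 to 5 and 9 to 14 members for cyclopamine against ethanol, SANT-2 and GANT-61. Calls over all genes were 75 to 105, 69 to 101 and 146 to 251 in those fits. Over all genes, array weights moved the calls to 201 of 11435 for cyclopamine minus ethanol, against 100, and to 1341 for GANT-61 minus ethanol, against 18. Foxj1b, near 0 there, reversed for GANT-61 minus ethanol with median scaling (-0.005), array weights (-0.037), without slide 2 (-0.058) and without ethanol replicate 3 (range with 1 replicate left out -0.039 to 0.173). For SANT-2 minus ethanol it reversed with the slide block (0.058), without slide 1 (0.088), and without ethanol replicate 1 or 2 or SANT-2 replicate 3 (range -0.147 to 0.072). The replicate block changed no count of members beyond those given with the results. Among the calls it added there without naming them were dnaaf4 for cyclopamine minus SANT-2 (limma adjusted p = 0.0379) and dnai7 for cyclopamine minus GANT-61 (0.0448). Except where said, the cause was not tested. Of 1479 values for named genes under alternatives, 1165 kept their direction and side of the threshold, and 48 changed direction. Genes not called in the main fit counted as kept when they stayed uncalled. Averaging probes could change no level of a member, as each has 1 probe. The total is therefore no measure of how stable the calls are. Signal over background limits dnai1.2 and the 4 untested members.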
